A study of Mus musculus with 4 samples.

Results

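The dopamine system genes were described in the newborn mouse brain after prenatal exposure to titanium dioxide nanoparticles. The 10 genes were Th, Ddc, Slc6a3, Slc18a2, Drd1, Drd2, Drd3, Drd4, Nr4a2 and Pitx3, taken as every non-control probe whose RefSeq accession in the scanner files belongs to one of them. They were 10 of 20660 genes named on the array and had 13 probes of 11 accessions among its 55681 different probes, with 2 probes each for Ddc, Slc18a2 and Nr4a2. In none of the 13 probes did the exposed and sham-exposed brains differ past an adjusted p of 0.05 in limma, and the closest to it were both probes of the vesicular transporter gene Slc18a2, which were 1.14-fold and 1.32-fold higher after exposure.

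Dopamine neurons of the midbrain turn tyrosine into dopamine through tyrosine hydroxylase and aromatic amino acid decarboxylase, load it into vesicles, and take it back up after release through the dopamine transporter. Dopamine acts on target neurons, above all in the striatum, through D1-like receptors that raise cyclic AMP and D2-like receptors that lower it. The factors encoded by Nr4a2 and Pitx3 are required for midbrain dopamine neurons to form or survive. At birth these neurons have formed.

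Whole-brain RNA from day 1 C57BL/6J offspring was combined into 4 pools, each hybridised to 1 one-color Agilent array. The Sham male and Sham female pools came from offspring of 5 dams given 25 uL of vehicle into the trachea, and the TiO2-H male and TiO2-H female pools from offspring of 6 dams given the same volume of TiO2 nanoparticle suspension at 100 ug per mouse. RNA of 2 offspring per dam was pooled, so the spread between animals was lost, and whole brain mixes the few dopamine neurons with all other cells. The labels give gestational day 10.5 in the protocol and 14 in the description as the day of exposure.

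Sequences next to the transcription start are shown for Slc18a2, whose probes differed most clearly between exposures, and for Th and Ddc, the enzyme genes of the same cells. All 10 genes had a RefSeq promoter, with 12 entries in all, and each was searched from 250 bases before to 50 bases after the start, on both strands, for the cAMP response element (CRE) TGACGTCA, the Nr4a binding letters AAAGGTCA (NBRE) and the TATA box letters TATAAA. Capitals mark the matches. The sequences are 5′ to 3′ on the gene's strand, from RefSeq on GRCm38.p6.
Th, chr7:142899996-142900245, minus strand: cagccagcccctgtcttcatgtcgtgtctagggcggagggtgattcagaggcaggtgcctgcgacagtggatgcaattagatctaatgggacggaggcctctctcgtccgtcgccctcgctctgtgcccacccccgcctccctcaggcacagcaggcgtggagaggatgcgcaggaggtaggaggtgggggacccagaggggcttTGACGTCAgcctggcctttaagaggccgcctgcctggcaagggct
Slc18a2, chr19:59260628-59260881, plus strand: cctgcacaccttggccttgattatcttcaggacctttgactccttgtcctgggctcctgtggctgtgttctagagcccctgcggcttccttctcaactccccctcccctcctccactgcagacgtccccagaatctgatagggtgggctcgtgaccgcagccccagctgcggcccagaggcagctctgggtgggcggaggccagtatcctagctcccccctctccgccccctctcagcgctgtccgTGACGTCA
Ddc, first of 2 promoters, chr11:11898145-11898394, minus strand: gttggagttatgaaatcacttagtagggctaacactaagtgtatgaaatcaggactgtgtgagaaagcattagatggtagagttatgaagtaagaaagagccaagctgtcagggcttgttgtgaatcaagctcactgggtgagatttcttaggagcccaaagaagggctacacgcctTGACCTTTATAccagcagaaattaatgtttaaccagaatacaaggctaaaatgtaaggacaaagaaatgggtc
The CRE of Th began 45 bases before the start, and that of Slc18a2 began 4 bases before it and ended in the first 4 bases of the transcript. These were the 2 of 10 genes with a CRE, which 1.79% of 32851 promoters of the same length held. In the first Ddc promoter an NBRE lay on the opposite strand, its far end 73 bases before the start. It shared letters with a TATAAA match on that strand. The second Ddc promoter held no match, and which promoter dopamine neurons use was not analysed. The NBRE was present in 1.51% of all promoters and TATAAA in 13.6%, the latter also in Nr4a2 among the 10 genes. A match in letters is a description and no measure of binding.

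Levels are given as relative signal, the processed signal of a probe divided by the 75th percentile of its array, so that 1 is the level of a probe at that percentile. The percentile lay between 795.3 and 870.7 signal units and was highest on the TiO2-H arrays, with no saturated spot. Detection also differed by exposure. Of all spots, 56.9 and 56.2% were well above background on the Sham male and female arrays. On the arrays labelled TiO2-H male and female, 59.4 and 61.2% were. Sex-linked RNAs went against the sex labels of the exposed arrays. Xist, transcribed from the inactive X chromosome, was measured in Sham female (relative signal 0.347) and labelled TiO2-H male (0.400) but had no signal clear of background in the remaining pair. The Y-linked Eif2s3y was at 4.34, 0.527 and 4.99 on the Sham male, Sham female and labelled TiO2-H female arrays, Ddx3y at 1.75, 0.179 and 2.05, and neither cleared background in labelled TiO2-H male. Both were well above background in Sham female, so that pool held Y-linked RNA beside Xist. The labels are therefore used below as names of arrays, and differences between the sexes are not drawn from them. On the single slide that carried all 4 arrays, each exposure took a row of its own, so that exposure and slide row cannot be told apart.

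**Figure D1:**
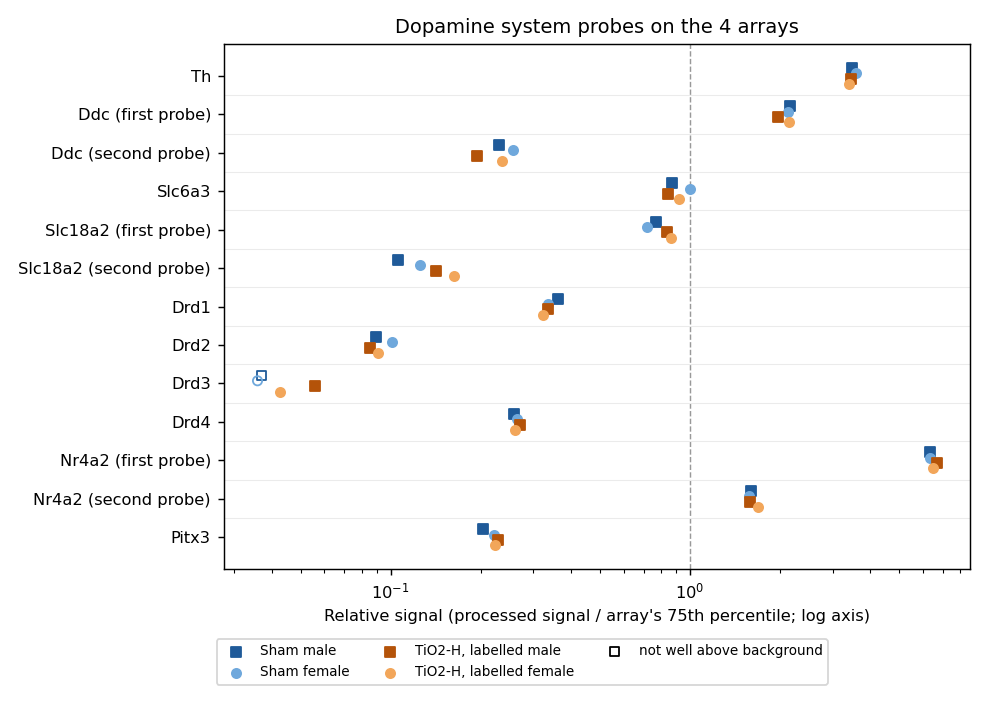
Relative signal (log axis) of the 13 probes of the dopamine system genes on the 4 arrays, 1 point per array, with open points where a probe was not well above background. All points are filled except those of Drd3 on both Sham arrays, and the 4 arrays lie close together for most probes. Probes differ in brightness, so that rows should not be ranked against each other.

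All 13 probes passed the filter, a signal well above background on 2 or more arrays, and 12 had such a signal on all 4. The exception, Drd3, passed through the TiO2-H arrays alone. Both TiO2-H arrays were above both Sham arrays for 5 probes of 4 genes, below them for the 1 probe of Th, and overlapped them for 7. Among all 31920 probes tested, 29.2% were higher and 24.6% lower without overlap, and the counts among the 13 are read against these shares with no test. With array signals left unscaled, 8 were higher and 0 lower, where 58.9% and 5.19% of all probes were. In limma with Benjamini-Hochberg adjustment, 0 of 13 probes and 0.0% of all probes had an adjusted p under 0.05, and the lowest over the array was 0.105. An unadjusted p under 0.05 was reached by 2 of the 13, both Slc18a2, and by 16.6% of all probes. The median log2 difference, TiO2-H minus Sham, was 0.02 for the 13 probes and 0.01 for all probes tested. In size alone, the median difference was 0.08 on the log2 scale against 0.0971 for all probes.

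Synthesis of dopamine takes the products of Th and Ddc. Tyrosine hydroxylase (Th, NM_009377), the rate-limiting enzyme, had relative signals of 3.48 in Sham male, 3.60 in Sham female, 3.46 on the labelled TiO2-H male and 3.39 on the labelled TiO2-H female array. The exposures did not overlap, but the Sham male and labelled TiO2-H male arrays were nearly level. The log2 difference was -0.05 with an SE of 0.0457 and a 95% interval from -0.18 to 0.09 (limma adjusted p = 0.617). The interval allows a Th level from 0.18 lower to 0.09 higher on the log2 scale. Without scaling between arrays the difference turned to 0.07, below the median shift of 0.12 that all probes then showed.

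Aromatic amino acid decarboxylase (Ddc) completes the synthesis of dopamine and also acts in serotonin neurons. Its first probe (NM_001190448) was at 2.16, 2.13, 1.97 and 2.15 in the same order of arrays, where the labelled TiO2-H male array was lowest and the other 3 lay together. Its second probe (NM_016672) was at 0.231, 0.257, 0.194 and 0.235, again lowest on the labelled TiO2-H male array. Exposures overlapped for both probes, and the log2 differences of -0.06 with an SE of 0.0642 and -0.19 with an SE of 0.124 had adjusted p of 0.657 and 0.481 in limma. Their intervals ran from -0.245 to 0.13 and from -0.55 to 0.17. Without the labelled TiO2-H male array, the difference of the first probe was 0.01 and that of the second -0.05.

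Transport of dopamine depends on a vesicular and a plasma membrane carrier. The vesicular monoamine transporter (Slc18a2, NM_172523), which loads dopamine, noradrenaline and serotonin into vesicles, was the one of the 3 genes with 2 probes for which neither probe overlapped between exposures. The first probe was at 0.770 and 0.717 on the Sham male and female arrays and at 0.838 and 0.864 on the arrays labelled TiO2-H male and female. The second was at 0.106 and 0.125 against 0.142 and 0.163. For both probes each TiO2-H array was above each Sham array, and the higher of the TiO2-H arrays was the one labelled female.

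The first probe differed by 0.20 on the log2 scale with an SE of 0.0583 and an interval from 0.03 to 0.37, a 1.14-fold higher level (limma adjusted p = 0.28). The second differed by 0.40 with an SE of 0.122 and an interval from 0.05 to 0.76, a 1.32-fold higher level (limma adjusted p = 0.282). Neither passed the threshold, and 22.7% and 6.47% of all probes tested had a difference at least as large. Their unadjusted p, 0.034 and 0.036, were matched or undercut by 12.2% and 12.7% of all probes. Both kept their sign when any 1 array was left out, with log2 differences from 0.14 to 0.25 and from 0.28 to 0.52. The second probe dropped to 0.14 under normexp background correction, while the first stayed at 0.18.

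The dopamine transporter (Slc6a3, NM_010020), a marker held almost entirely by dopamine neurons, was at 0.871 and 0.998 in the Sham male and female pools and at 0.847 and 0.919 on the arrays labelled TiO2-H male and female. The exposures overlapped. The Sham arrays differed from each other by 0.20 on the log2 scale, more than the -0.08 with an SE of 0.0946 between exposures (limma adjusted p = 0.678). The interval of that difference ran from -0.36 to 0.20, and leaving out the Sham female array turned it to 0.02. In whole-brain RNA, fewer cells of a type and less RNA per cell cannot be told apart, for Slc6a3 as for the other genes.

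**Figure D2:**
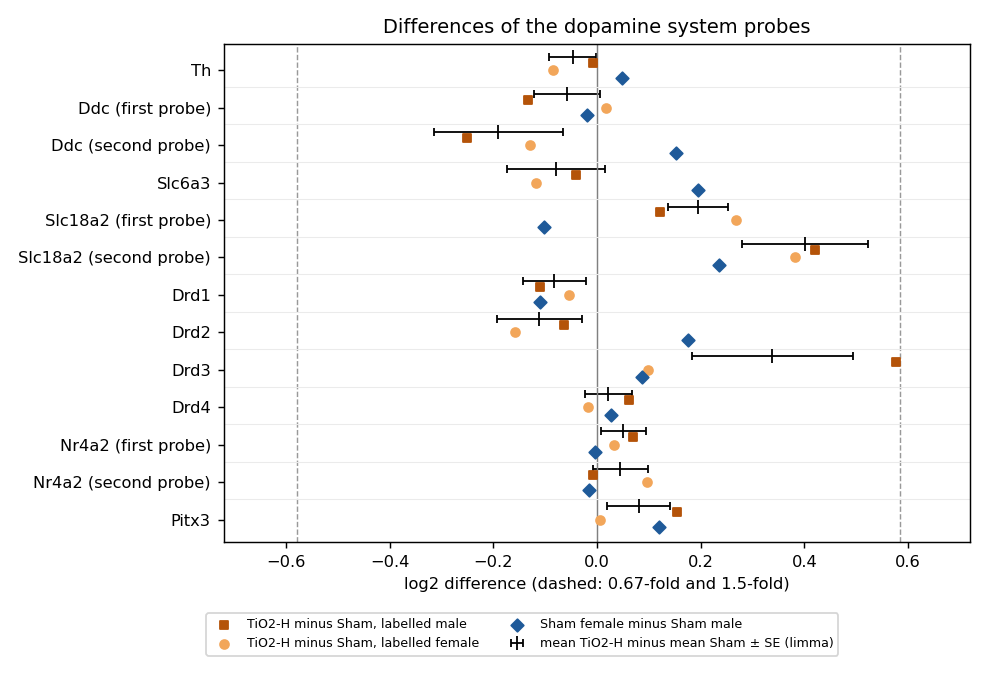
log2 differences of the 13 probes: TiO2-H minus Sham for the arrays labelled male (squares) and female (circles), their mean with the SE from limma (black), and Sham female minus Sham male (diamonds), with Drd3 set to the lowest measurable level on the Sham arrays. Dashed lines mark 0.67-fold and 1.5-fold. No point lies past them, the second probe of Slc18a2 and Drd3 lie farthest to the right, and the mean exposure difference exceeds the Sham difference in size for 7 of 13 probes. The share of all probes for which this holds is not given.

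Slc18a2 RNA is shared by dopamine, noradrenaline and serotonin neurons, so markers of all of these were set beside it. Of the dopamine neuron markers above, Th was slightly lower on both TiO2-H arrays and Slc6a3 overlapped. Of 6 markers of noradrenaline neurons, 5 were tested, and 0 of these were higher and 3 lower without overlap. Dbh, which turns dopamine into noradrenaline, was at 0.776 and 0.783 on the Sham male and female arrays and at 0.733 and 0.674 on those labelled TiO2-H male and female. The summed relative signal of this list was 2.35 and 2.37 on the Sham arrays and 2.22 and 2.13 on the TiO2-H arrays.

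All 6 markers of serotonin neurons were tested, with 3 higher, 0 lower and a median log2 difference of 0.04. The serotonin transporter Slc6a4 overlapped at 0.473, 0.502, 0.490 and 0.494, and Gata3, a factor that many other cells use too, was at 1.96, 2.01, 2.07 and 2.11. Of the other two that were higher, named here after their values were seen, Htr1a had no signal clear of background in either Sham pool. Fev, a factor restricted among brain cells to serotonin neurons, was at 0.136 and 0.130 against 0.147 and 0.172, a log2 difference of 0.26 with an SE of 0.0973 (limma adjusted p = 0.318). Tph2, also named after its values were seen, overlapped at 0.104, 0.0818, 0.0893 and 0.0971, a log2 difference of 0.01. The summed relative signal of the list, in which Gata3 was the brightest gene, was 2.94 and 3.0 on the Sham arrays. It was 3.08 and 3.15 on the TiO2-H arrays. The part of these cells in the Slc18a2 difference was not tested.

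**Figure D3:**
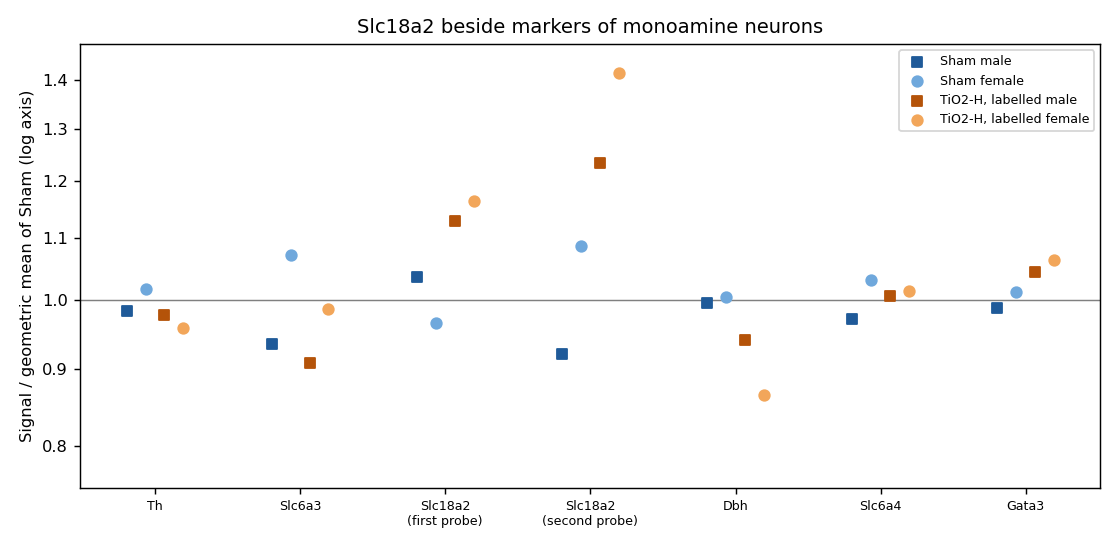
Signal of each probe divided by the geometric mean of the 2 Sham arrays (log axis), for Th, Slc6a3, both probes of Slc18a2, the noradrenaline neuron marker Dbh and the serotonin neuron markers Slc6a4 and Gata3, 1 point per array. Both Slc18a2 probes are higher on both TiO2-H arrays, Dbh is lower on both, Gata3 is slightly higher on both, and Slc6a3 and Slc6a4 overlap.

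Receptors came next. Drd1 (NM_010076), the main D1-like receptor of the striatum, was at 0.362 and 0.336 on the Sham male and female arrays and at 0.336 and 0.323 on the arrays labelled TiO2-H male and female. The Sham female and labelled TiO2-H male arrays were level, so the exposures overlapped. Its log2 difference was -0.08 with an SE of 0.0612 and an interval from -0.26 to 0.10 (limma adjusted p = 0.525).

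Drd2 (NM_010077), the D2-like receptor found on striatal neurons and on dopamine neurons themselves, was at 0.0894, 0.101, 0.0856 and 0.0905 in the same order. These values overlapped, with a log2 difference of -0.11, an SE of 0.0827 and an interval from -0.35 to 0.13 (limma adjusted p = 0.524). The pituitary also holds Drd2 RNA, and 5 of 8 pituitary markers, the prolactin gene Prl among them, did not clear background anywhere. The exception that moved was Gh, the growth hormone gene, which reached a relative signal of 0.347 on the array labelled TiO2-H male alone. Pomc, a hormone precursor of the pituitary and hypothalamus, was at 1.1 there and between 0.678 and 0.717 elsewhere, and Lhb, a luteinising hormone subunit, was at 0.170 there and from 0.126 to 0.152 elsewhere. The summed relative signal of the pituitary list was 1.08 in each Sham pool, 1.79 on the array labelled TiO2-H male and 0.967 on that labelled TiO2-H female. Drd2 measured 0.0856 on the array labelled TiO2-H male, the lowest of 4 values that lay close together. The part of the pituitary in the Drd2 signal was not tested.

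Drd3 (NM_007877), a D2-like receptor of limbic regions, was at the limit of detection. In the Sham male and female pools it measured 0.0371 and 0.0359, not well above background, and its signals of 0.0560 and 0.0427 on the arrays labelled TiO2-H male and female were. Set against the lowest measurable level on the Sham arrays, relative signals of 0.0375 and 0.0399, Drd3 was at least 1.26-fold higher with a log2 difference of 0.34 and an SE of 0.155 (limma adjusted p = 0.366). Its interval from -0.11 to 0.79 includes 0. Under normexp background correction the difference turned to -0.06. Since Drd3 passed the filter through the TiO2-H arrays, where its signal was the higher, the direction is given as a description.

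Drd4 (NM_007878), a D2-like receptor also held by the retina and pineal gland, was at 0.259, 0.264, 0.270 and 0.261. The 4 values lay within a narrow band and overlapped (log2 difference 0.02, SE 0.0461, interval -0.11 to 0.16, limma adjusted p = 0.818). Retina and pineal markers were few, with 3 of the 6 that have a named probe tested. Aanat, an enzyme of melatonin synthesis, was at 1.5, 1.4, 1.4 and 1.31, Otx2, a factor of retina, pineal gland and midbrain, at 4.11, 4.00, 4.28 and 4.61, and the summed relative signal was 5.90 and 5.64 on the Sham arrays and ran from 5.93 to 6.21 on the TiO2-H arrays. Crx and Pde6b, defining genes of photoreceptors, did not clear background anywhere.

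Both factors of midbrain dopamine neurons were well above background on all arrays. Nr4a2 (NM_013613, also known as Nurr1), which is also active in cortical neurons, was at 6.35, 6.34, 6.67 and 6.49 by its first probe. These values did not overlap, and the log2 difference of 0.05 with an SE of 0.0434 (limma adjusted p = 0.567) amounted to 1.04-fold. The second probe overlapped at 1.60, 1.58, 1.59 and 1.69, with a log2 difference of 0.05 and an SE of 0.053 (limma adjusted p = 0.673). Pitx3 (NM_008852), which among brain cells marks dopamine neurons, was at 0.204, 0.222, 0.228 and 0.223. Its exposures were apart by a hair, the Sham female and labelled TiO2-H female arrays being nearly level, and the log2 difference of 0.08 had an SE of 0.0613 and an interval from -0.10 to 0.26 (limma adjusted p = 0.532).

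Folds of 1 array over 1 array have no replicate check and were read against the thresholds in the study's methods, at least 1.5-fold or at most 0.67-fold. Within a labelled sex, 0 of 13 probes passed either threshold, and folds ran from 0.841 for the second Ddc probe to 1.49 for Drd3, both in the arrays labelled male. Over all probes with a signal well above background in at least 1 of the 2 arrays, 4.08% passed upward and 3.29% downward in the arrays labelled male, and 2.65% and 3.31% in those labelled female. With the pairs crossed to match the sex-linked RNAs, the labelled TiO2-H female array was 1.53-fold above the Sham male array for the second Slc18a2 probe. In the other crossed pair, labelled TiO2-H male over Sham female, the log2 difference of that probe was 0.184. The first Slc18a2 probe differed by 0.165 and 0.224 in these crossed pairs. Shares of all probes past the thresholds are not given for crossed pairs.

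The 2 Sham pools, which shared their exposure and their dams, gave a spread to read these folds against. It leaves out the variation between sets of dams. Between Sham female and Sham male, 3.17% of all probes passed upward and 3.15% downward, and 0 of the 12 member probes measured there did. The median size of the Sham difference was 0.10 on the log2 scale for the member probes and 0.0767 for all probes tested. The exposure difference exceeded the Sham difference for 7 of 13 probes, and exceeded the differences within both exposures for 3, namely both probes of Slc18a2 and the first probe of Nr4a2. The shares of all probes for which this holds are not given, so these counts are a description and no result about the members.

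The wider pathway was read through 7 lists with 64 further genes, each by its brightest probe. Of the 60 tested, 27 (45.0%) were higher and 14 (23.3%) lower without overlap, where 30.1% and 26% of all 15249 named genes tested were. The higher genes include Drd5 and the lower ones Kcnj6, each of which passed the filter through the TiO2-H arrays alone. None of the 60 differed by 1.5-fold without overlap or had a limma adjusted p under 0.05, the lowest was 0.261, and 10 (16.7%) had an unadjusted p under 0.05, as did 15% of all named genes tested. The median log2 difference was 0.05, and 0.01 over all named genes.

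Enzymes that make and recycle tetrahydrobiopterin, the cofactor of tyrosine hydroxylase, were split, with 2 of 6 higher and 3 lower. Qdpr, which regenerates the cofactor, was at 11.0, 11.3, 11.6 and 11.8 on the Sham male, Sham female, labelled TiO2-H male and labelled TiO2-H female arrays. Pcbd1, which acts in the same recycling, was at 5.05, 4.57, 4.33 and 4.50. Of the 6 enzymes that break down or convert dopamine, 2 were higher and 2 lower. Aldh2, an aldehyde dehydrogenase, was at 2.79 and 2.77 against 2.53 and 2.52, a difference of -0.14 with an SE of 0.041 (limma adjusted p = 0.278).

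Among 15 factors and signals of dopamine neuron development, 12 were tested, 4 higher and 2 lower, with a median log2 difference of 0.04. The 2 brightest were Otx2, given above, and Nr4a1, a relative of Nr4a2, at 3.39, 3.23, 3.46 and 3.40. En1, which midbrain dopamine neurons need for survival, did not clear background on any array by its 1 probe. Of 10 other genes of dopamine neurons, 9 were tested, 3 higher and 1 lower. Cck, a peptide of these and many other neurons, was at 30.6, 29.3, 30.7 and 31.6. The 1 lower gene, Kcnj6, had no signal clear of background in either Sham pool, so its place below them has no meaning.

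Of 5 further receptor and receptor partner genes, 2 were higher and 0 lower. The partner genes Caly and Ppp1r9b overlapped, with log2 differences of -0.05 and -0.01. Drd5, the other D1-like receptor, named here after its values were seen, was like Drd3 well above background on the TiO2-H arrays alone, at 0.0428 and 0.0588, with 0.0356 and 0.0347 measured on the Sham arrays.

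Genes of the striatal neurons that receive dopamine were the lists with the most genes apart between exposures. Of 12 striatal signalling genes 7 were higher and 4 lower, with a median log2 difference of 0.06, and of 10 striatal factors 7 were higher and 2 lower, with a median of 0.11. Pde1b, a phosphodiesterase, was at 9.93 and 10.4 against 11.3 and 10.9, and Gnal, the G protein subunit that couples D1 receptors to cyclic AMP, overlapped at 22.3, 22.7, 22.3 and 24.4. The 4 lower genes, named here after their values were seen, are markers of striatal neurons: the peptide genes Penk, Tac1 and Pdyn, with log2 differences of -0.06, -0.08 and -0.505, and Ppp1r1b, encoding DARPP-32, with -0.04. Their limma adjusted p ran from 0.341 for Pdyn to 0.637 for Ppp1r1b. Foxp1, a factor of striatal and cortical neurons, was at 20.5 and 20.8 against 23.6 and 22.5 (log2 difference 0.16, SE 0.0487, limma adjusted p = 0.282). Meis2 was at 15.6 and 15.8 against 17.2 and 16.7 (log2 difference 0.11, SE 0.0449, limma adjusted p = 0.337).

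**Figure D4:**
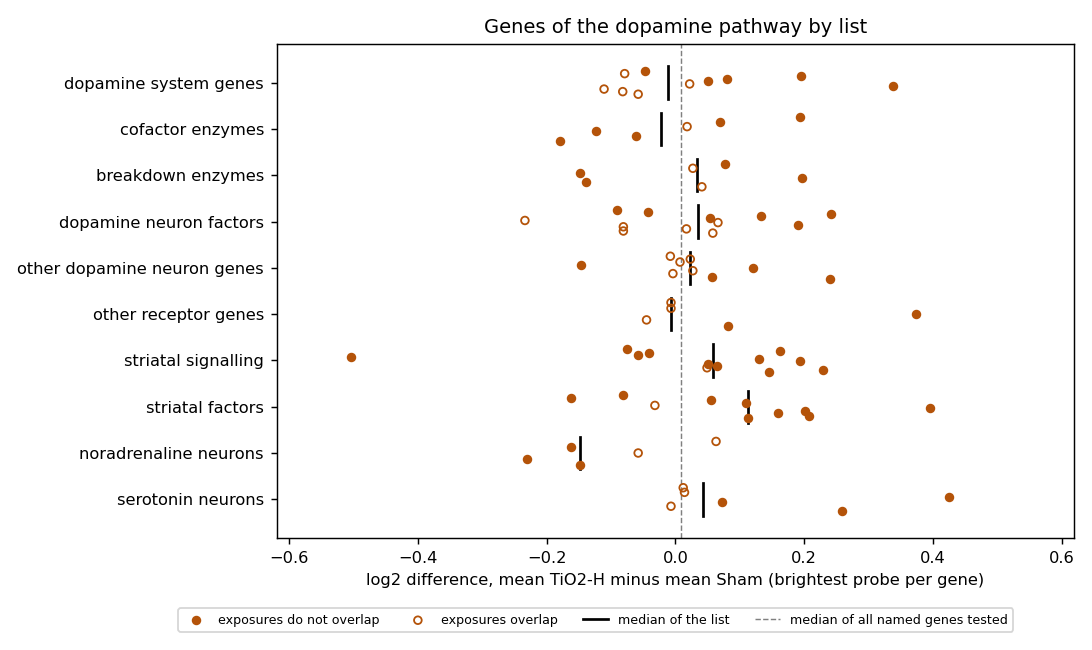
log2 difference, mean of the TiO2-H arrays minus mean of the Sham arrays, of the brightest probe of each tested gene, by list, with filled points where the exposures did not overlap, the median of each list (black line) and the median of all named genes tested (dashed line, 0.01). Most points lie within 0.2 of 0, the striatal factors have their median at 0.11, and the noradrenaline neuron markers have theirs at -0.15.

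Markers of neurons, glia and blood were read beside these genes. Of 6 neuron markers 2 were higher and 1 lower, their summed relative signal being 350.0 and 353.0 on the Sham and 347.0 and 362.0 on the TiO2-H arrays, with Stmn2 at 166.0, 164.0, 160.0 and 169.0 and Tubb3 at 98.4, 99.8, 94.8 and 96.0. The 2 higher, named here after their values were seen, were Snap25 at 25.0 and 26.5 against 28.9 and 30.0 (log2 difference 0.19, SE 0.056, limma adjusted p = 0.275) and Map2 at 11.1 and 11.3 against 12.5 and 12.6 (log2 difference 0.16, SE 0.0422, limma adjusted p = 0.267). Of 7 glial markers 4 were higher and 1 lower, with sums of 109.0 and 99.5 against 115.0 and 117.0. Their brightest, Fabp7 of radial glia, was at 91.9 and 82.7 against 97.6 and 99.5, and Slc1a3 at 8.03 and 7.81 against 8.05 and 8.28. Of 3 red blood cell markers tested 2 were lower, Hba-a1 at 61.3 and 58.9 against 50.4 and 50.7 and Alas2 at 1.18 and 1.03 against 0.956 and 1.01, and the list summed to 62.7 and 60.2 against 51.6 and 51.9. The part of neurons, glia and blood in the differences of the dopamine system genes was not tested.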

How the data were processed

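RNA was measured in 4 pools, 1 per exposure and labelled sex, and the groups were taken from the labels. The authors deposited scanner output of Agilent Feature Extraction 10.10.1.1, whose processed signal is a background-subtracted linear intensity per spot, beside outlier, saturation and background flags. The deposited value table equalled the processed signal at all 59305 non-control spots. Accessions were named through RefSeq (98.0% of 21887 NM and NR accessions, 56.7% of 37881 identifiers). The genome build of the file annotation differs from that of RefSeq, so the files' gene coordinates are not given, and those of the promoters printed are RefSeq's own.

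From the deposited intensities, log2 values minus each array's log2 75th percentile were computed, without outlier-flagged spots (138 to 181 per array), and spots of a probe were averaged. Where a probe did not clear background, a floor was applied: it took whichever was greater, its measured value or the smallest signal that probes well above background reached on the same array. That floor was a relative signal of 0.0375 and 0.0399 on the Sham male and female arrays. It was lower, 0.034 and 0.0268, on the arrays labelled TiO2-H male and female. Probes well above background on at least 2 of 4 arrays were fitted by exposure in limma 3.58.1 (R 4.3.3), 2 arrays against 2, with Benjamini-Hochberg adjustment over 31920 probes. The pools are the samples, so p-values measure the spread between pools, sex included. The male and female pools of an exposure came from the same dams. That spread therefore leaves out the variation between sets of dams, and SEs, intervals and p-values do not cover it. An exact permutation test of 2 against 2 cannot give a p below 0.33. A list was counted by the brightest probe per gene, its summed signal holds dim probes at the floor, and Asmt and Hbb-b1 had no probe named here.

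The number of arrays limits the precision. Of probes with 10 spots, the SD between spots was 0.0636 to 0.0673 on the log2 scale where well above background and 0.198 to 0.372 where not, and the scanner's error estimate was 10.0 to 14.1% of signal for the 12 member probes above background throughout. The fit was tested on simulated data. Alternatives were no scaling, quantile normalization, normexp (offset 50) on median signals, no floor, flagged spots kept, the value table, other filters and probe rules, sex as a term, crossed pairs, a 2-fold threshold and leaving out each array. The members, lists and tests were chosen with earlier results of these data known. Named genes were every member probe, the sex-linked mRNAs, and from each list genes at least 1.5-fold apart without overlap plus the 2 brightest others, with exceptions stated or chosen as markers for their absence or presence on an array. Some genes that this rule names are not reported here. Probe and protein sequences were not analysed here.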

Additional observations from a re-analysis of the deposited data

Results flagged for a closer look

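The arrays labelled male and those labelled female lay on opposite sides of their Sham arrays for 3 probes, and the difference was not tested, since each side is 1 array over 1 array and the sex labels of the TiO2-H arrays are in doubt. For the first Ddc probe, the log2 difference between TiO2-H and Sham was -0.13 in the arrays labelled male and 0.02 in those labelled female, 0.151 apart. For Drd4 it was 0.06 and -0.02, which are -0.078 apart (female minus male). For the second Nr4a2 probe it was -0.01 and 0.10, which are 0.104 apart.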

How the results depend on the processing

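Of 130 recomputed differences of member probes, 120 kept their sign and none had an adjusted p under 0.05, and both Slc18a2 probes stayed positive throughout, with adjusted p from 0.111 to 0.539. Without scaling between arrays, the median log2 difference of all probes tested was 0.12 and 82.4% of probes were positive, against 0.01 and 52.4% with scaling. There the differences of Th (0.068), the first Ddc probe (0.057), Slc6a3 (0.035), Drd1 (0.033) and Drd2 (0.003) turned positive, all below that median, 8 member probes were higher without overlap and 0 lower (58.9% and 5.19% of all probes), and 2 of all probes passed the adjusted threshold. Under normexp, Drd3 (-0.059) and Drd4 (-0.056) turned negative, 3 member probes were higher and 3 lower (28.1% of all probes each way), and 2 of all probes passed. Under quantile normalization 2 member probes were lower (24.8% of all probes). Leaving out 1 array left 6 member probes higher where all arrays gave 5 and 2 to 5 lower where all gave 1, beside 39.4 to 42.2% and 34 to 38.1% of all probes, and the lone array of an exposure was then assumed to vary like the other exposure. The differences ranged from -0.123 to 0.008 for the first Ddc probe and from -0.004 to 0.047 for Drd4 (both with the sign turned without the labelled TiO2-H male array), and from -0.177 to 0.018 for Slc6a3 (positive without the Sham female array). With crossed pairs, 1 member probe passed 1.5-fold, the second Slc18a2 probe in labelled TiO2-H female over Sham male (1.53-fold). In the arrays labelled male, 1 passed without the floor (Drd3, 1.51-fold) and 1 without scaling (Drd3, 1.60-fold). The shares of all probes past the threshold in these settings are not given. The median of all probes was -0.11 with no filter on dim probes. With labelled sex as a term, as labelled and with the TiO2-H labels exchanged, 0 probes passed the adjusted threshold, and 4061 and 3777 of all probes had an unadjusted p under 0.05 where 5296 had without it. The cause of these changes was not tested beyond what each setting's construction gives. With 1 pool per exposure and sex, small differences such as those of Th or Slc6a3 cannot be told from none.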
